A study of Mus musculus with 4 samples.

Results

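The genes described here are 32 genes of endothelial identity and signalling, chosen as a list of symbols by function: junction and adhesion proteins, growth factor receptors, Notch and ephrin ligands, and transcription factors of the SOXF, ETS and basic helix-loop-helix families. All 32 were found among the 55487 genes of the table, and all 32 passed the filter on low values (a mean of at least 3 on the deposited log2 scale). They were measured by bulk RNA sequencing of adipocyte preparations from perigonadal white fat, an abdominal depot next to the gonads. The mice were male littermates on a standard diet, either CKO or control (WT), with 2 libraries per group. Age, strain and the alleles that make up CKO are not stated in the labels, and BLIMP1, a zinc finger repressor that Prdm1 encodes, is named in the series title with macrophages. The labels do not say whether each library came from 1 animal or a pool, so each p-value reflects spread among libraries that may be purely technical.

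Endothelial cells line blood and lymph vessels, and in fat a dense capillary bed surrounds the adipocytes and passes fatty acids and glucose to them. VEGF ligands, made by adipocytes and other cells, act on endothelial tyrosine kinase receptors to drive sprouting and survival. Angiopoietins acting on the TIE receptors and BMP9 acting on ALK1 with endoglin keep vessels quiescent. Notch signals through DLL4 limit sprouting, and factors such as ERG and SOX17 hold endothelial and arterial identity.

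Every one of the 32 genes had a higher mean log2 level in CKO than in WT (51.1% of all genes tested), with a median log2 difference of 1.08 and a range from 0.36 (Acvrl1) to 1.79 (Sox7), but none passed the threshold of an adjusted p under 0.05 in limma (adjusted p from 0.459 to 0.650). CKO replicate 2 was the highest library and WT replicate 2 the lowest for all 32 genes, an order seen in 13.7% of the 16871 genes tested. Between them lay CKO replicate 1 and WT replicate 1, whose endothelial levels were close, with a median log2 difference of 0.05. In bulk samples, fewer endothelial cells and less endothelial RNA per cell cannot be told apart.

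Promoter sequences are shown for 4 of the genes whose values are set against each other below: Kdr and Flt1, receptors of the same ligand whose balance differed between libraries, Tek, and Cldn5, which had the highest level per length. A RefSeq table on GRCm38.p6 held 22 promoter windows for 17 of the 32 genes. Each sequence ends at the base before the gene start and runs 5′ to 3′ on the gene's strand; capitals mark GGAA or its complement TTCC, the core that ETS factors such as ERG recognise.
Kdr, chr5:75978459-75978705, minus strand: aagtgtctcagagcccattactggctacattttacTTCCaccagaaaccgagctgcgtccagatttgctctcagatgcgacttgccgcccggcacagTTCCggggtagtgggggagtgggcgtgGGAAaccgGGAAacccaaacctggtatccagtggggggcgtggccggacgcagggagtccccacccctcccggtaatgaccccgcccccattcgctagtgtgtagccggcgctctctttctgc
Flt1, chr5:147726012-147726261, minus strand: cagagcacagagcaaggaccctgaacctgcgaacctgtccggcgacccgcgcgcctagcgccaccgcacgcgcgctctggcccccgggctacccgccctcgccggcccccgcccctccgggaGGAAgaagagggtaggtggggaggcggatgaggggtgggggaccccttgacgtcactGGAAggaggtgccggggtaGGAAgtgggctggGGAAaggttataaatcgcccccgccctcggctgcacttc
Tek, chr4:94739039-94739288, plus strand: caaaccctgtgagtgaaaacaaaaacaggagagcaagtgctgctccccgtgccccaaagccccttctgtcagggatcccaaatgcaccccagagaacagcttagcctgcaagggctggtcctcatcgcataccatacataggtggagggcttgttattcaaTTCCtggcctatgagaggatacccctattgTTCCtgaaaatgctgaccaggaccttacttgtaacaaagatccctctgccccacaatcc
Cldn5, chr16:18776597-18776846, plus strand: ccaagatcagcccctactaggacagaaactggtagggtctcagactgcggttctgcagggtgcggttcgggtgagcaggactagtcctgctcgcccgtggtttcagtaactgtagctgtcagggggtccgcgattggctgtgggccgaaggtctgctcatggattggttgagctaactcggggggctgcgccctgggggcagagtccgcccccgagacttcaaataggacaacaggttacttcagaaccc

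The Kdr and Flt1 windows held 4 matches each, Tek held 2 and Cldn5 held 0, with G and C making up 61.5%, 70.4%, 51.2% and 59.6% of the bases. The motif search covered the full 250 bases before the RefSeq start in each window, while the Kdr sequence printed above is trimmed to the 247 bases before its GENCODE start. GGAA on either strand stood in 90.9% of the 22 windows of these genes and in 93.4% of all 32851 windows in the table. The longer form AGGAAG, which contains GGAA, stood in 45.5% against 29.5%. The SOX letters ACAAT stood in 27.3% against 27.7%, the E-box CANNTG in 54.5% against 66.2%, and AGATAA, bound by GATA factors, in 9.09% against 9.99% (both strands in each case). A match is a description of the letters and not a site.

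Recovered reads per library ran from 24152081 to 26742547. The 32 genes took 0.672% and 1.09% of the reads of CKO replicates 1 and 2, and 0.626% and 0.240% of those of WT replicates 1 and 2. Adipocyte transcripts were found in all 4 libraries, at unequal levels. Fabp4, a fatty acid chaperone made by adipocytes and by capillary endothelium, had 422551, 486973, 294565 and 120652 reads in CKO replicates 1 and 2 and WT replicates 1 and 2. In the same order the adipocyte gene Cfd had 510650, 178187, 126441 and 12314 reads. The macrophage gene Lyz2 had 18064, 57859, 97222 and 244332. Prdm1 had 152 and 386 reads in CKO and 514 and 1135 in WT (log2 difference -1.79, adjusted p 0.459 in limma). Its libraries stood in the same order as those of Lyz2, and the macrophage genes listed below had a median log2 difference of -2.29. Whether Prdm1 differed apart from macrophage content was not tested. Which part of a gene the CKO allele lacks is not stated in the labels.

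**Figure D1:**
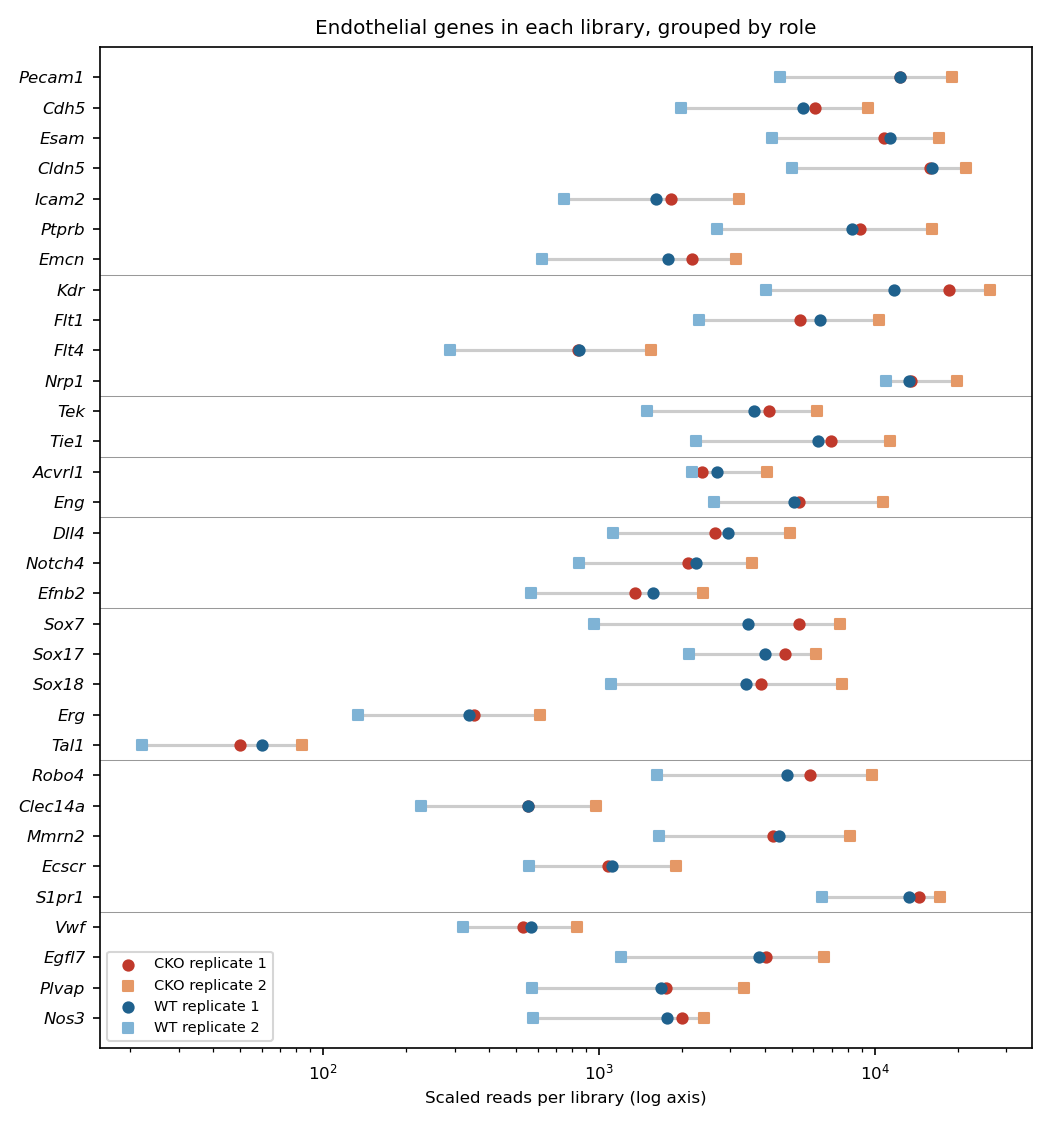
Scaled reads (log axis) of the 32 endothelial genes in each library, grouped by role from junction proteins at the top to secreted products and enzymes at the bottom; red and orange are CKO, dark and light blue are WT. CKO replicate 2 is the rightmost point and WT replicate 2 the leftmost for every gene, from Tal1 (22.1 to 84.2) to Kdr (4031 to 26123).

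Junction and adhesion genes lay close together in their differences. Pecam1 encodes CD31, the adhesion receptor of endothelial contacts that leukocytes and platelets also carry. It had 12367 and 20981 reads in CKO replicates 1 and 2 and 11873 and 4327 in WT replicates 1 and 2. WT replicate 1 thus stood beside CKO replicate 1, and after scaling the groups were separated by a narrow margin, 12389 against 12329. The scaled mean was 15697 ± 4678 for CKO libraries and 8439 ± 5501 for WT libraries (SD, n = 2), with a log2 difference of 1.03 (SE 0.58, adjusted p 0.487 in limma). Cdh5 encodes VE-cadherin, the protein that holds endothelial junctions closed. Its reads were 6059 and 10473 in CKO against 5299 and 1892 in WT, with a log2 difference of 1.20 (SE 0.57). The groups did not overlap for Cdh5, and its ratio to Pecam1 within a library, which no scaling alters, stayed between 0.437 and 0.499 over the 4 libraries.

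Cldn5, the tight junction claudin of endothelium, had 15857 and 23638 reads in CKO and 15538 and 4756 in WT. Its groups overlapped, because WT replicate 1 exceeded CKO replicate 1 after scaling (16134 against 15885). Per kilobase of exon, Cldn5 was the most abundant of the 32 genes, with a mean of 10316 scaled reads per kilobase over the 4 libraries, ahead of S1pr1 (4219), Esam (3793), Sox18 (2475) and Pecam1 (1938). The gene is short (chromosome 16, 18776847 to 18778262 on the plus strand of GRCm38, a single interval of 1416 exonic bases). Esam, an adhesion molecule of endothelial junctions and platelets, overlapped in the same way with a log2 difference of 0.97. The phosphatase Ptprb, which restrains TIE2 and VE-cadherin signalling, was at 1.34. Emcn, a sialomucin of capillaries and veins, was at 1.32, and the leukocyte ligand gene Icam2 at 1.14. These 3 genes had both CKO libraries above both WT libraries. Of the 7 junction and adhesion genes, 7 were higher in CKO (51.1% of all genes tested), 5 without overlap (23.9% of all) and 0 at an unadjusted p under 0.05 (3.35% of all).

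VEGF receptor genes differed from each other in the size of the difference. Kdr encodes VEGFR2, the main signalling receptor for VEGF-A, and lies on chromosome 5 (75932827 to 75978458, minus strand). It had 18517 and 28840 reads in CKO replicates 1 and 2 and 11309 and 3834 in WT replicates 1 and 2. The WT libraries were both below the CKO libraries, with scaled means of 22337 ± 5355 and 7887 ± 5453 (SD, n = 2) and a log2 difference of 1.68 (SE 0.61, unadjusted p 0.0402, adjusted p 0.459 in limma). Flt1 encodes VEGFR1, which binds the same ligand tightly and in its soluble form acts as a decoy. Its reads were 5354 and 11482 in CKO and 6104 and 2198 in WT. Here WT replicate 1 exceeded CKO replicate 1, and the log2 difference was 0.96 (SE 0.61, adjusted p 0.517 in limma).

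The reads of Kdr relative to those of Flt1 were therefore higher in both CKO libraries. The ratio was 3.46 (95% exact binomial interval 3.35 to 3.57) and 2.51 (2.46 to 2.57) in CKO, against 1.85 (1.80 to 1.91) and 1.74 (1.65 to 1.84) in WT. The intervals cover counting error only, and with 2 libraries per group an exact permutation test cannot give a two-sided p below 0.333. The same ordering held against Pecam1, where Kdr stood at 1.50 and 1.37 in CKO and 0.952 and 0.886 in WT. Kdr had a log2 difference of 1.68 and Pecam1 one of 1.03, so the order against Pecam1 largely restates those differences. The Kdr contrast was singled out after its values had been seen.

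Flt4, the VEGF-C receptor of lymphatic and some blood capillaries, had 840 and 1700 reads in CKO and 813 and 275 in WT. Its groups overlapped by a small margin (scaled reads of 841 in CKO replicate 1 and 844 in WT replicate 1), with a log2 difference of 1.20. Nrp1, a co-receptor for VEGF and semaphorins that macrophages and other cells also make, had 13471 and 22014 reads in CKO and 12839 and 10424 in WT. It was 0.28 higher in WT replicate 1 than in WT replicate 2 on the log2 scale, where the median of the 32 genes was 1.44. The groups did not overlap, though WT replicate 1 and CKO replicate 1 were close (scaled reads of 13332 and 13495). Its log2 difference between the groups was 0.44 (SE 0.39, adjusted p 0.620 in limma).

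**Figure D2:**
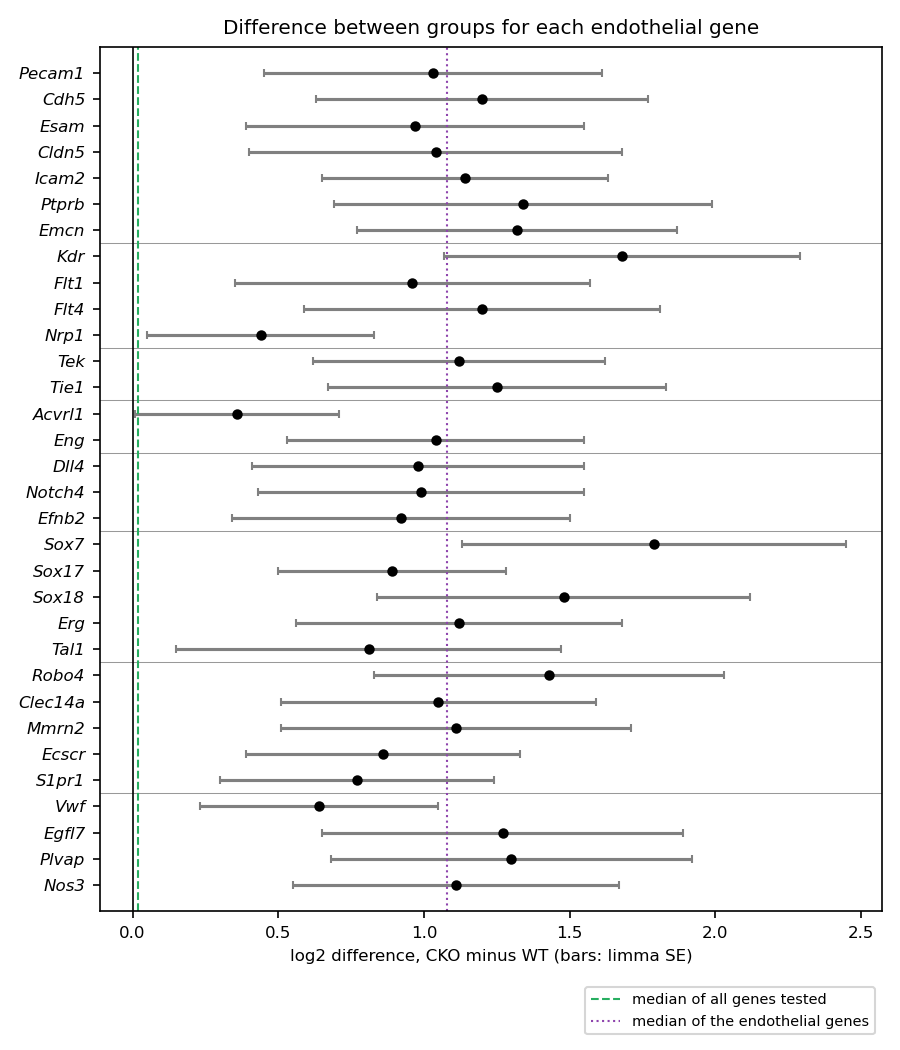
The log2 difference, CKO minus WT, of each endothelial gene with its limma standard error; the dashed line is the median of all genes tested (0.02) and the dotted line the median of the 32 genes (1.08). Sox7 (1.79) and Kdr (1.68) lie farthest to the right, and Acvrl1 (0.36) and Nrp1 (0.44) farthest to the left.

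The TIE receptor genes had nearly equal differences. Tek, which encodes TIE2, the angiopoietin receptor, had 4150 and 6837 reads in CKO and 3504 and 1427 in WT. Tie1, its partner receptor with no established ligand of its own, had 6963 and 12541 in CKO and 5990 and 2145 in WT. For both genes the CKO libraries lay above the WT libraries, with log2 differences of 1.12 (SE 0.50) and 1.25 (SE 0.58) and an adjusted p of 0.459 each in limma. The ratio of Tek to Tie1 reads was between 0.545 and 0.665 in the 4 libraries.

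The receptors of the BMP9 pathway parted from each other. Eng encodes endoglin, a co-receptor also found on activated macrophages and mesenchymal cells, and had 5296 and 11799 reads in CKO and 4933 and 2487 in WT. Acvrl1 encodes ALK1, the kinase that signals for BMP9, and had 2356 and 4492 reads in CKO and 2591 and 2065 in WT. Eng had a log2 difference of 1.04 without overlap, and Acvrl1 one of 0.36 with WT replicate 1 above CKO replicate 1. Acvrl1 reads relative to Eng were 0.445 and 0.381 in CKO and 0.525 and 0.830 in WT, so the highest ratio lay in WT replicate 2. The Acvrl1 difference was the only one of the 32 to change sign when a library was left out, at -0.03 without CKO replicate 2.

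Notch and ephrin genes overlapped between the groups in every case. Among all genes tested, CKO was fully separated from WT upward for 23.9% and downward for 26.8%, and the rest overlapped. Dll4, the Notch ligand of arteries and tip cells, had 2626 and 5426 reads in CKO and 2838 and 1069 in WT. Notch4, a receptor largely restricted to endothelium, had 2097 and 3956 in CKO and 2169 and 806 in WT. Efnb2, the arterial ephrin, had 1353 and 2629 in CKO and 1520 and 539 in WT. In each of these 3 genes WT replicate 1 stood above CKO replicate 1 after scaling, and the log2 differences were 0.98, 0.99 and 0.92 (adjusted p 0.497, 0.487 and 0.515 in limma). The ratio of ligand to receptor, Dll4 to Notch4, was 1.25 and 1.37 in CKO and 1.31 and 1.33 in WT, with counting intervals that overlapped between the groups.

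Among the transcription factors, the SOXF genes had unequal differences although their proteins bind the same DNA letters and stand in for each other in part. Sox7 (chromosome 14, 63943673 to 63950732, plus strand) had 5302 and 8302 reads in CKO and 3353 and 911 in WT, with scaled means of 6416 ± 1562 and 2220 ± 1785 (SD, n = 2). Its log2 difference of 1.79 (SE 0.66, unadjusted p 0.0420, adjusted p 0.459 in limma) was the largest of the 32. Sox18, mutated in a human disorder of lymph vessels and hair, had 3874 and 8419 reads in CKO and 3292 and 1056 in WT, a log2 difference of 1.48. Sox17, needed for arterial identity, had 4738 and 6770 in CKO and 3854 and 2025 in WT, a log2 difference of 0.89. None of the 3 overlapped between the groups, with CKO the higher group in each (23.9% of all genes tested).

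As shares of all SOXF reads, Sox7 made up 38.1% (95% exact binomial interval 37.3 to 38.9) and 35.3% (34.7 to 36.0) in CKO replicates 1 and 2. In WT replicates 1 and 2 it made up 31.9% (31.0 to 32.8) and 22.8% (21.5 to 24.2). Sox17 made up 34.1% and 28.8% in CKO and 36.7% and 50.7% in WT; the shares sum to the whole, so a higher share of one gene lowers the others. Against Pecam1, a gene outside the family, the ratio of Sox7 reads was 0.429 and 0.396 in CKO and 0.282 and 0.211 in WT. Sox7 had the largest log2 difference of the 32 genes and Pecam1 one near their median, so this order largely restates those differences. The intervals above cover counting error only. The ratio of Sox17 to Pecam1 did not separate the groups, at 0.383 and 0.323 in CKO and 0.325 and 0.468 in WT. The share of Sox18 did not separate the groups, at 27.8% and 35.8% in CKO and 31.4% and 26.5% in WT. Sox17 shares 804 exonic bases with an antisense gene, and no source used here gives the strand setting of the counting.

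Erg, the ETS factor that maintains endothelial fate, was much less abundant, with 352 and 674 reads in CKO and 325 and 127 in WT. It followed the median of the 32 genes closely, with a log2 difference of 1.12 (SE 0.56) and no overlap. Tal1, a basic helix-loop-helix factor of blood and endothelial progenitors that red cell precursors also express, had the fewest reads of all, 50 and 93 in CKO and 58 and 21 in WT. At this depth its log2 difference of 0.81 (SE 0.66) rests on few reads, and the groups overlapped.

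Other surface receptors and their ligands also had CKO replicate 2 highest and WT replicate 2 lowest. Robo4, a stabiliser of vessels, had 5809 and 10793 reads in CKO and 4625 and 1545 in WT, a log2 difference of 1.43 without overlap. S1pr1, the sphingosine 1-phosphate receptor that seals endothelium and also guides lymphocytes, had 14421 and 19026 in CKO and 12780 and 6138 in WT, a log2 difference of 0.77 without overlap. Clec14a and its matrix ligand gene Mmrn2 were at 1.05 and 1.11, and Ecscr, an endothelial sialomucin, at 0.86. Mmrn2 and Ecscr overlapped, with WT replicate 1 above CKO replicate 1.

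Secreted, vesicle and enzyme products had log2 differences from 0.64 to 1.30. Vwf, the clotting factor stored in endothelial granules and in platelets, had 529 and 920 reads in CKO and 546 and 305 in WT, with a log2 difference of 0.64 and overlapping groups. Plvap, the diaphragm protein of fenestrae and caveolae, was at 1.30. Nos3, which makes nitric oxide, had 1994 and 2655 reads in CKO and 1702 and 551 in WT, a log2 difference of 1.11 without overlap. It shares 1334 exonic bases with the opposite-strand genes Atg9b, which had 28 to 50 reads, and Gm15587. Egfl7, a secreted vessel protein that hosts miR-126, was at 1.27; it overlaps Agpat2, an adipocyte enzyme of triglyceride synthesis with 3403 to 12630 reads, on the opposite strand (122 exonic bases shared with opposite-strand genes). Of the 32 genes, 7 share exonic bases with an annotated gene on the opposite strand.

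Counted over the list, 32 of 32 genes were higher in CKO, against 51.1% of all genes tested. The CKO libraries both exceeded the WT libraries for 20 of 32 genes, against 23.9% of all genes tested, and both were below them for 0 (26.8% of all). At an unadjusted p under 0.05 in limma, 2 of 32 were higher (Kdr and Sox7) and 0 lower, against 3.35% and 7.26% of all genes tested. The 2 genes are close to that background, and voom weights gave 0. At an adjusted p under 0.05, 0 of 32 and 0 of 16871 genes were called by limma (0% of all), and 0 with voom weights. With no scaling the unadjusted calls over all genes were 859 higher and 855 lower, in place of 566 and 1224, and the median of all genes moved from 0.02 to 0.15, while the median of the 32 genes moved from 1.08 to 1.22.

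**Figure D3:**
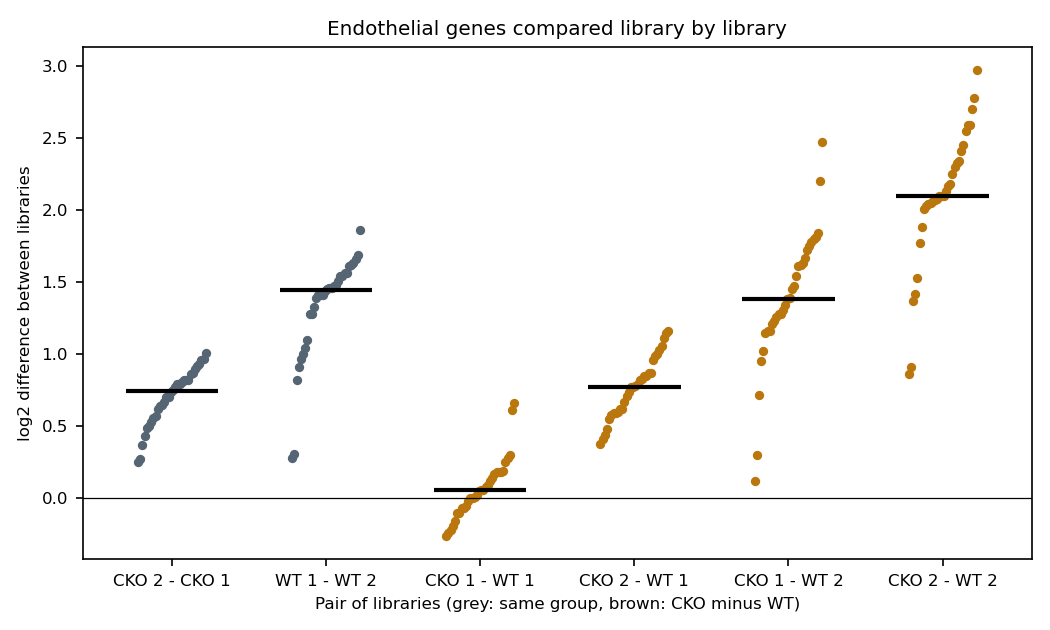
The log2 difference between 2 libraries for each of the 32 endothelial genes (points) with the median (bar), for the 2 pairs within a group (grey) and the 4 CKO minus WT pairs (brown). The pair CKO replicate 1 minus WT replicate 1 sits around 0 (median 0.05), while WT replicate 1 minus WT replicate 2 sits around 1.44.

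Library against library, the difference between the groups depended on which libraries were set side by side. For the 32 genes the median log2 difference was 2.10 between CKO replicate 2 and WT replicate 2, 1.39 between CKO replicate 1 and WT replicate 2, 0.78 between CKO replicate 2 and WT replicate 1, and 0.05 between CKO replicate 1 and WT replicate 1. Inside the groups it was 1.44 between WT replicates 1 and 2, and -0.74 for CKO replicate 1 minus CKO replicate 2. The difference between the WT libraries thus exceeded 3 of the 4 differences between groups. Over all genes tested the same medians lay between -0.05 and 0.00, which is where the scaling by median ratios sets them.

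CKO replicate 1 and WT replicate 1, close in their median, differed for single genes. Of the 32 genes, 20 were higher in CKO replicate 1 (50.0% of all genes tested). The ratio of scaled reads was 1.58 for Kdr (95% exact binomial interval 1.54 to 1.62) and 1.53 for Sox7 (1.46 to 1.59), followed by Emcn at 1.23 and Robo4 at 1.21. The lowest ratio was that of Tal1, 0.832, with an interval that held 1 (0.558 to 1.24). Next came Flt1 at 0.846 (0.816 to 0.878) and Efnb2 at 0.859 (0.798 to 0.925), with intervals below 1. Counting intervals lay above 1 for 14 genes, below 1 for 7 and held 1 for 11. They compare these 2 libraries and not the conditions.

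**Figure D4:**
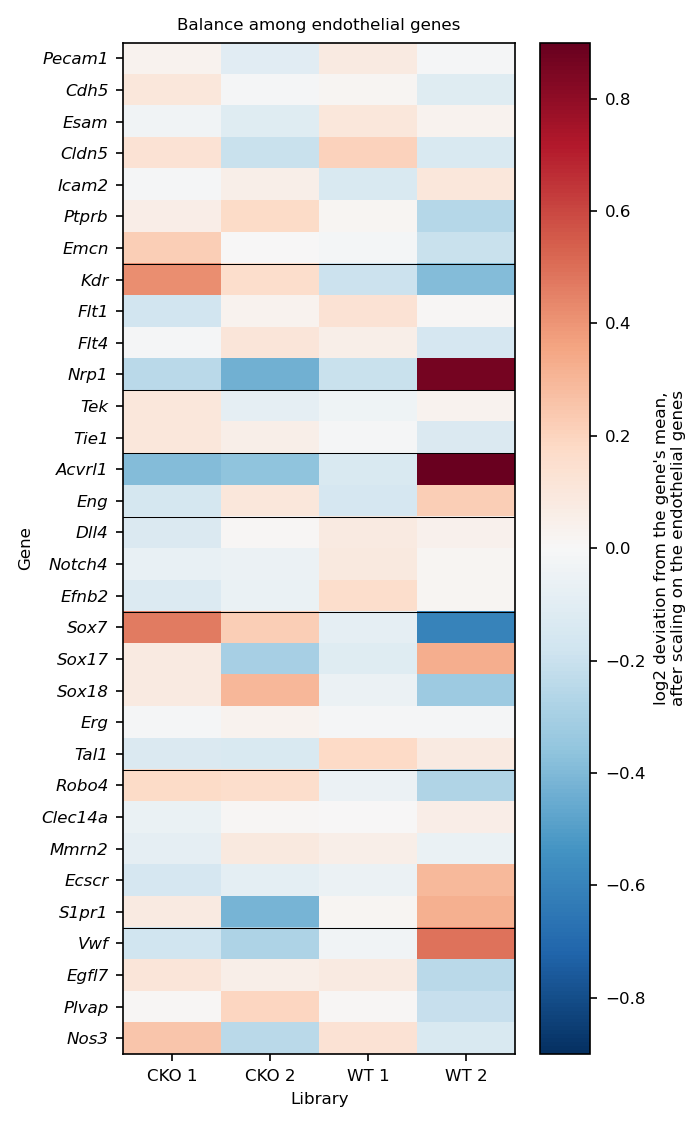
Log2 deviation of each gene from its own mean after the libraries were scaled so that the median ratio over the 32 endothelial genes was equal; columns are libraries and rows genes, grouped by role. WT replicate 2 has the strongest colours, with Acvrl1 (0.89) and Nrp1 (0.86) high and Sox7 (-0.60) low, and WT replicate 1 the palest.

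The libraries were also scaled on the 32 genes themselves, to show the balance among them. The number of genes within 0.25 (log2) of their own mean was 29 in CKO replicate 1, 26 in CKO replicate 2, 32 in WT replicate 1 and 21 in WT replicate 2, and the SD over genes was 0.18, 0.19, 0.11 and 0.32. The genes that departed most in WT replicate 2 were Acvrl1 (0.89), Nrp1 (0.86) and Vwf (0.49) upward, and Sox7 (-0.60), Kdr (-0.39) and Sox18 (-0.33) downward. Kdr and Sox7 were above their means in both CKO libraries (0.42 and 0.16 for Kdr, 0.47 and 0.22 for Sox7) and below them in both WT libraries. Nrp1 and Acvrl1 were below their means in both CKO libraries and in WT replicate 1. This scaling was chosen after the data had been seen, and the values are a description.

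Genes of the same pathways that are not among the 32 were given by lists. Of 100 such genes, 93 were tested. In CKO 75 were higher (51.1% of all genes tested) and 18 lower, 19 and 2 at an unadjusted p under 0.05 (3.35% and 7.26% of all). Their median log2 difference was 0.80, and the adjusted p was no smaller than 0.459 in limma. Vegfd and Cd93 changed sign under another scaling. Capillary genes had the highest median (1.38), with 7 of 7 higher and 7 of 7 without overlap (51.1% and 23.9% of all genes tested). In this list 3 genes were higher at an unadjusted p under 0.05 in limma (3.35% of all). Rbp7, a retinol-binding protein of fat capillaries, had 5374 and 12775 reads in CKO and 3539 and 1577 in WT (log2 difference 1.68). The butyrophilin-like gene Btnl9 was at 1.85 and Cd300lg, a receptor of capillary endothelium, at 1.60. Without WT replicate 2 the capillary median was 0.67 and that of the 32 genes 0.42.

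Other pan-endothelial genes had a median of 1.11 (10 of 12 higher), close to the 32, with Ushbp1 at 1.52, Adgrf5 at 1.51 and the junction regulator Rasip1 at 1.30. Arterial genes had a median of 0.99 (6 of 6 higher), with the netrin receptor gene Unc5b at 1.49, Sema3g at 1.40 and the connexin gene Gja4 at 1.01. Venous genes had a median of 0.76 (4 of 6 higher), with Nr2f2, the venous fate factor, at 1.52, Ephb4, the receptor for ephrin B2, at 1.49 and Selp at 1.05. Lymphatic transcripts were scarce. Prox1, the master factor of lymphatic endothelium, had 3 to 10 reads, and of 4 lymphatic genes tested Lyve1, which macrophages also make, was at 1.18, Reln at 0.64 and Ccl21a at -0.39. With WT replicate 2 left out, the median was 0.34 for the pan-endothelial genes, 0.30 for the arterial and 0.15 for the venous genes. With CKO replicate 2 left out, these medians were 0.72, 0.51 and 0.86.

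BMP pathway genes included several of the smallest p-values. Of 10 tested, 9 were higher (51.1% of all genes tested), 6 without overlap (23.9% of all) and 5 at an unadjusted p under 0.05 (3.35% of all), with a median of 0.72 that became 0.46 when WT replicate 2 was left out. Id1 and Id3, immediate targets of BMP receptors in many cell types, had log2 differences of 1.88 (SE 0.57) and 1.56 (SE 0.46). Id3 had 18145 and 19468 reads in CKO and 8474 and 3960 in WT, so both CKO libraries were more than 2 times the higher WT library. The inhibitory SMAD gene Smad7 was at 1.44. Their relative Id2, named after its value was seen, was at -0.89, with 847 and 1606 reads in CKO and 1303 and 2969 in WT. Notch pathway genes had a median of 0.89 (9 of 11 higher), with Notch1 at 1.04, the target gene Hes1 at 1.56 and Heyl at 1.20. Leaving out CKO replicate 2 gave the Notch genes a median of 0.37, and leaving out WT replicate 2 gave 0.32.

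Ligands of the receptors had a median of 0.30 (8 of 11 tested higher), below that of the receptors. Angpt1, the activating ligand of TIE2, had 940 and 252 reads in CKO and 125 and 35 in WT (log2 difference 2.72, SE 0.92), and was highest in CKO replicate 1 rather than in CKO replicate 2. Angpt4 and the ROBO ligand gene Slit3 were at 2.37 and 1.43. Angpt2 and Vegfa were at 0.01 and 0.30, with overlapping groups. Without WT replicate 2 the ligand median was -0.06. Other endothelial transcription factor genes had a median of 0.65 (15 of 18 higher; 0.24 with CKO replicate 2 left out, 0.36 with WT replicate 2 left out), with Gata2 at 1.63, Meox2 at 1.40 and Ets1 at 1.26. Tip cell genes had a median of 0.14 (5 of 8 higher) whose sign rested on single libraries. It was -0.57 (2 of 8 higher) with CKO replicate 2 left out, -0.32 (2 of 8 higher) with WT replicate 2 left out, and 0.90 with CKO replicate 1 left out. In this list Kcne3 and the chemokine receptor gene Cxcr4, which leukocytes also express, were at -2.70 and -2.54, while Pdgfb, which recruits pericytes, was at 0.73. Inducible adhesion genes were split, 3 of 5 higher, with a median of 1.05 that became 0.23 with WT replicate 2 left out. Sele was at 2.83 on 4 to 84 reads and the junction gene Jam2 at 1.29. Icam1 and Vcam1 were lower, at -0.60 and -0.27, with overlapping groups.

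**Figure D5:**
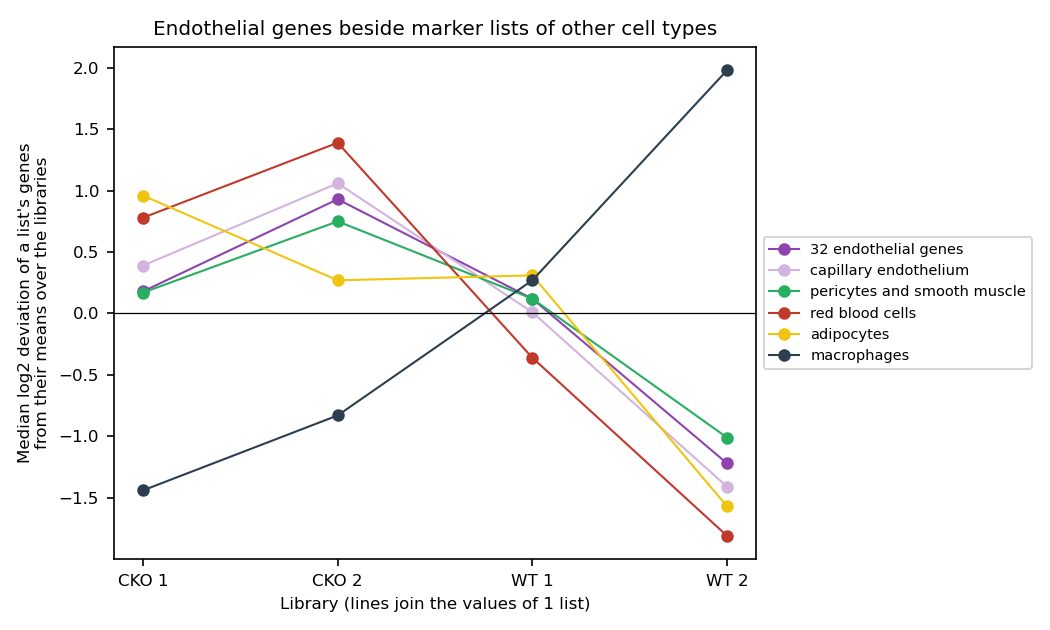
Median log2 deviation of the genes of each list from their means over the 4 libraries; each line joins the values of 1 list. The 32 endothelial genes run at 0.18, 0.93, 0.12 and -1.22 in CKO replicates 1 and 2 and WT replicates 1 and 2, beside pericyte genes at 0.17, 0.75, 0.12 and -1.01, while macrophage genes run the other way to 1.98 in WT replicate 2.

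Markers of several other cell types also differed between the libraries. The pericyte and smooth muscle list had summed scaled reads of 16740 and 23963 in CKO and 18592 and 7174 in WT (7 of 10 genes higher, median 0.97, or 0.30 with WT replicate 2 left out), so WT replicate 1 exceeded CKO replicate 1. Of its 10 genes, 7 were highest in CKO replicate 2 and lowest in WT replicate 2. Rgs5, a pericyte gene, was at 1.28, and Acta2, smooth muscle actin, at -0.97. Red blood cell genes were summed to 19020 and 30281 in CKO and 9115 and 3272 in WT, with a median of 2.21. Of those tested, 7 of 7 were higher and without overlap (51.1% and 23.9% of all genes tested). Hbb-bs was at 2.09 and Hba-a1 at 2.17, genes with near-identical copies that can share reads. Macrophage genes went the opposite way, from 40689 and 87882 in CKO to 180796 and 535728 in WT (10 of 10 lower, median -2.29, with Lyz2 at -2.39 and C1qb at -2.36). Adipocyte genes were summed to 1306005 and 848539 in CKO and 738429 and 231900 in WT (9 of 10 higher, median 1.19), with Fabp4 at 1.13 and Cfd at 2.80, and were highest in CKO replicate 1, where the endothelial genes were not. With WT replicate 2 left out, the medians of the red blood cell, macrophage and adipocyte genes were 1.45, -1.42 and 0.31. Fibroblast genes were summed to between 18562 and 36094 (1 of 9 higher, median -0.67, with Col3a1 at -0.81 and Col1a2 at -0.67).

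Platelet, mesothelial and lymphocyte lists held few reads. Of the platelet genes, Gp1bb had 0 reads in all libraries, Ppbp had 89 to 205, and Pf4, which macrophages also make, had 1340 to 6386 (3 of 4 tested higher, median 0.19). Mesothelial genes were summed to between 157 and 365 scaled reads (3 of 6 higher, median -0.11). Upk3b was at 0.41, and Lrrn4, with 3 to 110 reads, at 2.44. T and B cell genes were summed to between 43.1 and 138 (4 of 4 tested higher), with Cd8a at 0 reads and Ms4a1 and Cd4 at 0.89 and 0.16. The part of these other cell types in the endothelial differences was not tested.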

How the data were processed

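The submitters' processing notes name STAR 2.7.5c, FastQC and the build GRCm38.p6; no source used here gives the counter, its annotation or its strand setting. The deposited values are on a log2 scale, and once the log was undone and 1 taken off they were whole within 0.01 for 100% of genes in each library, so they are log2(reads + 1) with no scaling between libraries. Reads were recovered by rounding and divided by size factors (median of ratios over 19847 genes: 0.998 and 1.10 for CKO, 0.963 and 0.951 for WT). Log2(scaled reads + 1) was fitted on group alone with limma 3.58.1 in R 4.3.3 (eBayes with a trend, two-sided, 2 residual and 2.92 prior degrees of freedom), for the 16871 genes whose deposited log2 values averaged 3 or more, with Benjamini-Hochberg adjustment over all of them. The fold change of low genes is understated by the pseudocount of 1. The design foresaw this scaled log2 fit, and a count model was not run because the deposited unit is log2. For a repeated symbol the row of highest mean was used. GENCODE M21 on GRCm38 held 99.3% of the identifiers and gave coordinates (1-based) and exon lengths. Replicate numbers follow record order and pair no samples. The 32 genes and all lists were chosen with earlier results of these data known. Named by rule, besides the 32 genes, are the 3 genes of smallest p in each pathway list. Also named by rule are the 2 of highest mean in each cell type list, and Prdm1. Prox1, Gp1bb, Cd8a, Atg9b, Gm15587, Agpat2, Id2, Vegfd and Cd93 were added after their values were seen. So were Notch2, Rbpj, Icam1, Vcam1, Vegfa and Angpt2. The fit was tested on simulated reads whose noise was drawn for each gene apart, with no shift shared by the genes of a library. That test therefore does not cover the spread seen here, where the median level of the 32 genes had a pooled within-group SD of 0.77 (log2). No batch is named in the labels. Alternatives were other scalings, filters, pseudocount, variance settings, weights, and each library left out.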

Additional observations from a re-analysis of the deposited data

How the results depend on the processing

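All 32 endothelial genes stayed higher in CKO under each of the 10 planned settings that kept every library (31 of 31 at a minimum of 6, where Tal1 was not tested), and of 447 single-gene values recomputed 1 changed sign, that of Acvrl1 (between -0.03 without CKO replicate 2 and 0.75 without CKO replicate 1). Their median ran from 0.42 to 1.76 when 1 library was left out, the lowest without WT replicate 2 and the highest without WT replicate 1. It was 0.05 for CKO replicate 1 against WT replicate 1 alone and 2.10 for CKO replicate 2 against WT replicate 2 alone, settings added after the data had been seen. The count at an unadjusted p under 0.05 was 1 when scaled by total reads, 1 without a trend and 0 with voom weights, and ran from 0 to 29 with a library left out. The count without overlap was 18 when scaled by total reads and 23 with no scaling, and ran from 20 to 32 with a library left out. A group of 1 library is separated from the other group more easily than a group of 2. Over all genes, too, the count higher at an unadjusted p under 0.05 rose without WT replicate 1 and fell without any other library. Neither range with a library left out can therefore be read against the all-gene shares of the main fit. Without WT replicate 1, where the single WT library left takes its spread from the CKO pair, 10 of the 32 genes passed an adjusted p under 0.05 in limma (smallest 0.0442), as did 837 higher and 938 lower of all genes; without any other library these 3 counts were 0, and the smallest adjusted p of the 32 genes was 0.830 or more. Over the settings that kept every library it was between 0.432 and 0.580. No paired analysis was possible because the replicate numbers only follow the order of the records. Tal1 had 21 to 93 reads per library, and the lowest count of any other of the 32 genes was 127 (Erg in WT replicate 2). The part of sequencing depth in the spread between libraries was not tested.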
